A study of Mus musculus with 7 samples.

Results

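Antibody against ICOSL, first given on day 3 after an allogeneic transplant and thus 1 day before the spleens were taken, was compared with a control antibody. The comparison rests on 4 of the 7 arrays of the study, chosen by their titles: 2 arrays of the day 3 group and 2 of the isotype group. All groups were female C57BL/6 mice aged 9 to 12 weeks that had been irradiated with 10 Gy and were grafted 4 to 6 h afterwards with splenocytes by vein. The isotype group received C3H splenocytes and control rat IgG. The day 3 group received C3H splenocytes and anti-ICOSL monoclonal antibody from day 3, and the day 0 group (2 arrays) the same graft and antibody from day 0. The syngeneic group (1 array) received C57BL/6 splenocytes, and no antibody is named for it. The first dose was 500 µg and later doses were 200 µg every other day, with the same doses for the controls. The labels do not say on which day the control IgG was started. Splenocytes were collected on day 4. With 4 mice per group and experiment, RNA of allogeneic recipients was combined and hybridised to 2 arrays for each group, with no statement of whether both held the same pool. Each p-value below measures the spread between arrays and not between mice. Host and donor cells were measured together.

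Acute graft-versus-host disease begins when donor T cells are primed by recipient antigen in lymphoid organs such as the spleen, divide, and turn into effector cells that secrete interferon gamma and kill host tissue. ICOS is a costimulatory receptor that appears on T cells after activation and signals through PI3 kinase. Its ligand ICOSL sits on B cells, macrophages, dendritic cells and endothelium, and the pair is best known for sustaining follicular helper T cells and their help to B cells. In an irradiated recipient the spleen also loses most of its own lymphocytes, while its macrophages and the remaining progenitors of red cells persist for longer.

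Of 22626 probe sets, none passed the test (limma, adjusted p under 0.05 after Benjamini-Hochberg; 0% called). The lowest adjusted p was 0.308, for Igha. Without adjustment, 1972 probe sets (8.72%) had a p under 0.05, of which 1261 (5.57%) were higher and 711 (3.14%) lower in the day 3 group. Differences were therefore read against the gap between the arrays of a group. A gene is called separated below when the difference between its group means on the log2(signal + 50) scale exceeds both the gap between the isotype arrays and the gap between the day 3 arrays. By this measure 3409 probe sets (15.1%) were separated and higher, and 2681 (11.8%) were separated and lower. With 1 probe set per gene, 1994 of 12393 genes (16.1%) were separated and higher and 1470 (11.9%) separated and lower, and counts of gene lists are read against these shares. Separated is a description and not a test: 2 arrays against 2 cannot give an exact permutation p (two-sided) below 0.333. Groups without overlap were more common still, with 5154 probe sets (22.8%) higher and 3907 (17.3%) lower. Where genes below are said not to overlap, that is read against these 2 shares.

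Single arrays of a group differed from each other about as much as arrays of different groups. The isotype arrays were at least 2-fold apart at 1314 probe sets and the day 3 arrays at 1027, and the 4 pairs of an isotype with a day 3 array at 1028 to 1591. The group means, each an average over 2 arrays, were 2-fold apart at 374 probe sets, of which 327 were separated. Counting only groups that did not overlap, 275 probe sets (1.22%) were 2-fold higher and 96 (0.424%) 2-fold lower. The median signal of an array was 145.3 and 161.4 with isotype antibody against 161.5 and 174.3 with anti-ICOSL from day 3, without overlap. After median centring of the arrays, 2123 probe sets were separated and higher and 4031 separated and lower, so the excess of higher ones depended on the scaling. The signal at the 3′ end of Gapdh over that at its 5′ end, which is used to judge RNA integrity, was 0.784 and 0.767 with isotype antibody but 0.838 and 0.865 with anti-ICOSL from day 3, without overlap. The same ratio for Actb ran the other way, at 1.004 and 1.021 against 0.967 and 0.991, also without overlap. The part of either ratio in the results was not tested.

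**Figure D1:**
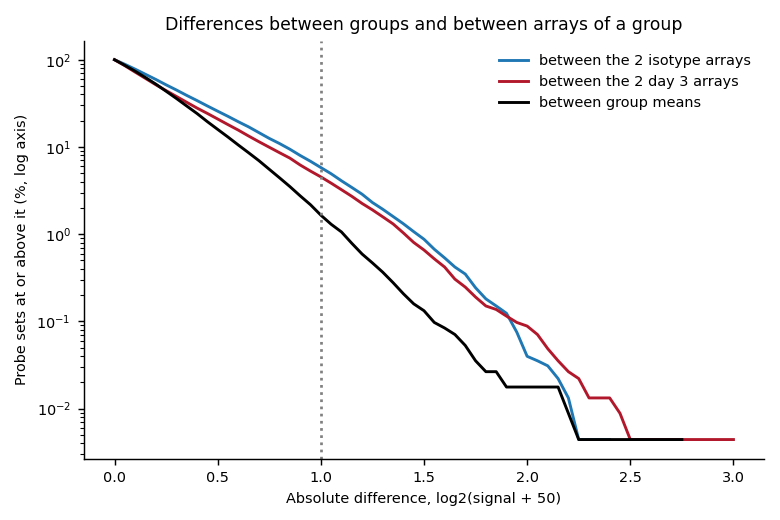
Share of the 22626 probe sets (%, log axis) whose absolute difference in log2(signal + 50) is at or above the value on the horizontal axis, between the isotype arrays (blue), between the day 3 arrays (red) and between the group means (black); the dotted line marks a 2-fold difference. The black line compares averages over 2 arrays and lies below both coloured lines at 2-fold, with 374 probe sets against 1314 and 1027.

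The largest difference was that of Igha, which encodes the heavy chain constant region of IgA. Its signal was 2446 and 1788 on the isotype arrays against 15228 and 13681 on the day 3 arrays. Both day 3 arrays stood far above both isotype arrays, and also above the day 0 arrays at 2698 and 2977, while the syngeneic array was higher still at 46620. The difference between day 3 and isotype was 2.76 ± 0.21 on the log2 scale (n = 2 and 2), or 6.76-fold (limma, adjusted p = 0.308). Here and below, ± gives the SE of the limma fit over all 7 arrays, and not an SE of the compared arrays alone. All 3 probe sets of Igha were separated and higher, the other 2 by 2.19 and 2.20. Against the day 0 arrays the difference was 2.33 ± 0.21 (limma, adjusted p = 0.271).

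The other transcripts of antibody-secreting cells did not show a difference of that size. Of 11 plasma cell genes with a probe set, 2 were separated and higher, Igha itself and Prdm1, and none was separated and lower (1 and 1 after median centring of the arrays). Prdm1 encodes the transcription factor that drives plasma cell differentiation and stood at 805 and 793 against 869 and 939, a difference of 0.17 ± 0.17. Jchain, the chain that joins IgA and IgM into polymers, read 5616 and 6268 on the isotype arrays against 6114 and 7318 on the day 3 arrays, with overlapping values. Xbp1, the factor that expands the secretory apparatus, read 7723 and 10274 against 11592 and 11869, where the gap between the isotype arrays was as large as the difference. Among 54 other immunoglobulin probe sets, 15 were separated and higher and 7 separated and lower; their median difference was 0.10 and the largest 0.95. The heavy chain of IgM, Ighm, was nearly level at the brightest of its 11 probe sets, at 49414 and 49956 against 50662 and 51874. Dimmer ones were separated and higher by up to 0.90 (414 and 418 against 744 and 901), and 1 was separated and lower (−0.34).

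Saa3, Arg1 and Marco, all expressed by macrophages, were higher on the day 3 arrays. Saa3, an acute phase protein made by macrophages and stroma, read 468 and 375 on the isotype arrays against 1754 and 2571 on the day 3 arrays. Arg1, the arginase of alternatively activated macrophages, read 58 and 57 against 304 and 332. Marco, which marks marginal zone macrophages and takes up bacteria, read 154 and 157 against 428 and 434. In each of the 3 genes both day 3 arrays lay well above both isotype arrays and close to the day 0 arrays, which read 2286 and 2184 for Saa3, 330 and 295 for Arg1 and 406 and 428 for Marco. On the syngeneic array the 3 did not go together. Saa3 at 850 and Marco at 1114 lay above the isotype arrays there, and Arg1 at 5 lay below them. The differences were 2.21 ± 0.24, 1.77 ± 0.17 and 1.22 ± 0.16 (SE of the limma fit, n = 2 and 2, limma adjusted p = 0.409 for each). Restricting the test to brighter probe sets (a group mean at or above the 60th percentile) brought Igha and Saa3 under the threshold (limma, adjusted p = 0.0068 and 0.0197). Over all 15 settings, the main one included, the highest adjusted p (limma) was 0.852 for each. Arg1 and Marco passed that filter only through groups in which they were high, and not through the isotype group. Their values there are therefore not given as support. The adjusted p of Igha and of Saa3 under this filter also depends on which other probe sets it kept, Arg1 and Marco among them. These values are thus a description of that setting only.

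**Figure D2:**
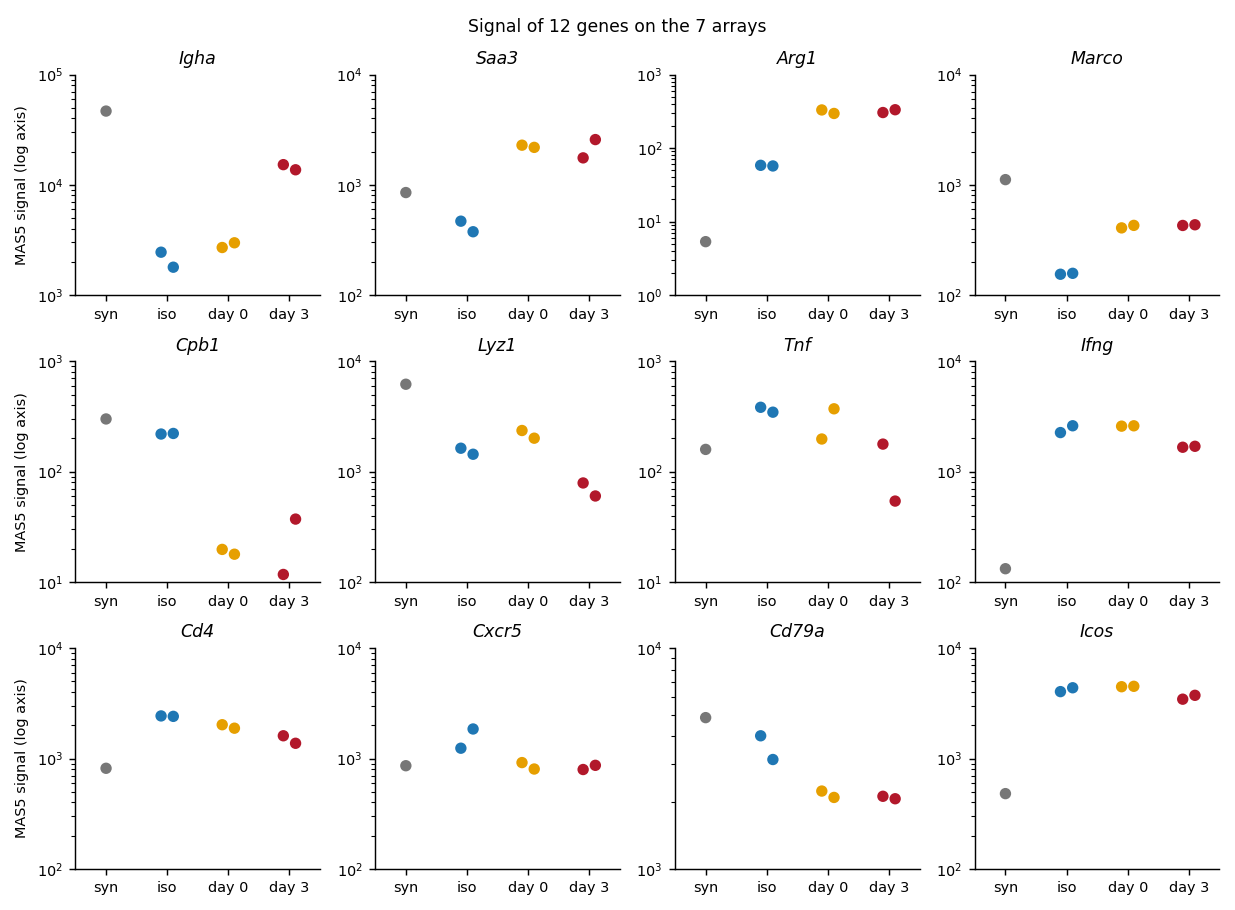
MAS5 signal (log axis, ranges differ between panels) of 12 genes on the syngeneic (syn), isotype (iso), day 0 and day 3 arrays; each point is 1 array and no error bar is drawn. Igha stands between 13681 and 46620 on the syngeneic and day 3 arrays and between 1788 and 2977 on the others, whereas Saa3, Arg1 and Marco stand at similar levels on the day 0 and day 3 arrays.

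Saa3 and Arg1 belong to a list of 18 alternative activation and wound genes that went both ways. In it 9 genes were higher and 9 lower, 4 were separated and higher and 3 separated and lower (4 and 5 after median centring of the arrays), and the median difference was 0.01.

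The promoter of Saa3 is shown because the gene is a textbook target of C/EBP factors, whose binding sequence contains TTNNGCAA. The 250 bases before its transcription start are given 5′ to 3′ on the gene's strand (RefSeq, GRCm38.p6, chr7:46715677-46715926, minus strand), with the match to that motif in capitals.
Saa3: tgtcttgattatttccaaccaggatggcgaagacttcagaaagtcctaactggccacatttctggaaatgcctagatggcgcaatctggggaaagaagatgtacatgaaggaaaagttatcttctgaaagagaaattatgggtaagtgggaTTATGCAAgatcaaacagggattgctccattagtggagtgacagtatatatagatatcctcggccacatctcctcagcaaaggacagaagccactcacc
The match begins 99 bases before the start. Searched on both strands in windows of 300 bases (250 before and 50 after the start), the motif is present in 10.8% of 32851 mouse promoters, and a match describes the letters only.

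Of 27 macrophage and monocyte genes, 21 were higher on the day 3 arrays, 15 of them separated, and 3 were separated and lower. Their median difference was 0.39, against 0.04 over all genes. After median centring of the arrays, 11 were separated and higher and 3 separated and lower, with a median of 0.29. Resident macrophage genes made up much of the list: Slc40a1, the iron exporter of red pulp macrophages, read 876 and 776 against 1332 and 1334, and Vcam1, an adhesion molecule of the same cells, 759 and 673 against 1108 and 1184. Adgre1 (F4/80), the common surface marker of mouse macrophages, read 476 and 474 against 804 and 671, and Fcgr1, the high-affinity IgG receptor, 96 and 151 against 270 and 271. Cd14, the coreceptor for lipopolysaccharide, read 163 and 204 against 360 and 361. In all 5 genes the groups did not overlap, and differences ran from 0.58 (Adgre1) to 0.90 (Fcgr1). All 27 genes summed to signals of 16089 and 15535 on the isotype arrays against 19797 and 18718 on the day 3 arrays. From arrays of whole spleen cells, a higher share of macrophages and more RNA per macrophage cannot be told apart.

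The lysozymes and the monocyte chemokine receptor Ccr2 ran the other way within the same list. Lyz1 read 1631 and 1438 on the isotype arrays against 789 and 602 on the day 3 arrays, and Lyz2, its close paralogue and the main lysozyme of macrophages, 1259 and 1588 against 905 and 964. Ccr2 read 521 and 509 against 341 and 326. All 3 were separated and lower, with differences of −1.10, −0.57 and −0.56. The day 0 arrays were not low in them (2362 and 2011 for Lyz1, 1987 and 1904 for Lyz2, 523 and 514 for Ccr2). Lyz1 and Lyz2 are similar enough in sequence for probes to take signal from both. Another, dimmer probe set of Lyz1 was separated in the opposite direction, at 43 and 17 against 63 and 97.

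Granule genes of neutrophils did not move together: of 17, 3 were separated and higher and 3 separated and lower. Mpo, the peroxidase of immature granulocytes, read 1049 and 958 against 1531 and 1352. Lcn2, an iron-sequestering acute phase protein of neutrophil granules, read 546 and 660 against 456 and 371.

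Genes of red cell precursors were higher on the day 3 arrays. Of 32 with a probe set, 26 were higher, against 6937 of all 12393 genes (56%), and 14 of the 26 were separated. Of the 32, 2 were separated and lower, and the median difference was 0.30. After median centring of the arrays, 11 were separated and higher and 3 separated and lower, with a median of 0.20. The transcription factors of the lineage all stood higher: Gata1, its master regulator, at 243 and 234 against 319 and 403; Tal1, its bHLH partner, at 306 and 276 against 366 and 541; and Klf1, which switches on adult globin genes, at 799 and 711 against 978 and 1097. Epor, the erythropoietin receptor, read 320 and 394 against 453 and 489. In these 4 genes the groups did not overlap, and differences were 0.50, 0.54, 0.43 and 0.36. Larger differences were those of Add2, a subunit of the adducin of the red cell membrane skeleton, at 213 and 130 against 358 and 481, and Sptb, erythroid beta-spectrin, at 119 and 134 against 195 and 285. None passed the test (limma, adjusted p from 0.47 for Add2 to 0.655 for Epor).

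The 2 separated and lower members were Alas2 and Epb42. Alas2, the first enzyme of erythroid haem synthesis, read 201 and 135 against 87 and 112, and Epb42, a protein of the red cell membrane, 70 and 48 against 16 and 38. Hba-a1, an alpha-globin gene whose transcript is nearly identical to that of Hba-a2, varied from 5 to 158 between the isotype arrays alone. Enzymes of later steps of haem synthesis were separated and higher, Uros at 477 and 417 against 731 and 594, Cpox at 664 and 567 against 710 and 872, and Ppox at 189 and 180 against 249 and 224. The 32 genes summed to 18392 and 19478 on the isotype arrays against 22532 and 24962 on the day 3 arrays.

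The red cell genes were also where the day 3 arrays differed most from the day 0 arrays as a list. Of the 32, 29 were higher on the day 3 than on the day 0 arrays, 21 of them separated and none separated and lower, with a median difference of 0.46. Over all probe sets, 2895 (12.8%) were separated and higher in that comparison and 2486 (11%) separated and lower. Klf1 read 649 and 618 on the day 0 arrays, Epor 321 and 258, and Alas2 13 and 8. All 3 lay below the day 3 arrays, by 0.67, 0.62 and 1.30. For macrophage genes the order was the opposite: 6 of 27 were higher on the day 3 than on the day 0 arrays, and 12 were separated and lower, with a median of −0.23. The complement gene C1qb, made by resident macrophages, read 1079 and 954 with isotype antibody, 1840 and 1833 with the day 0 schedule and 1215 and 1160 with the day 3 schedule. No single gene passed the test between the schedules (limma, lowest adjusted p = 0.271), with 1345 probe sets (5.94%) at an unadjusted p under 0.05.

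**Figure D3:**
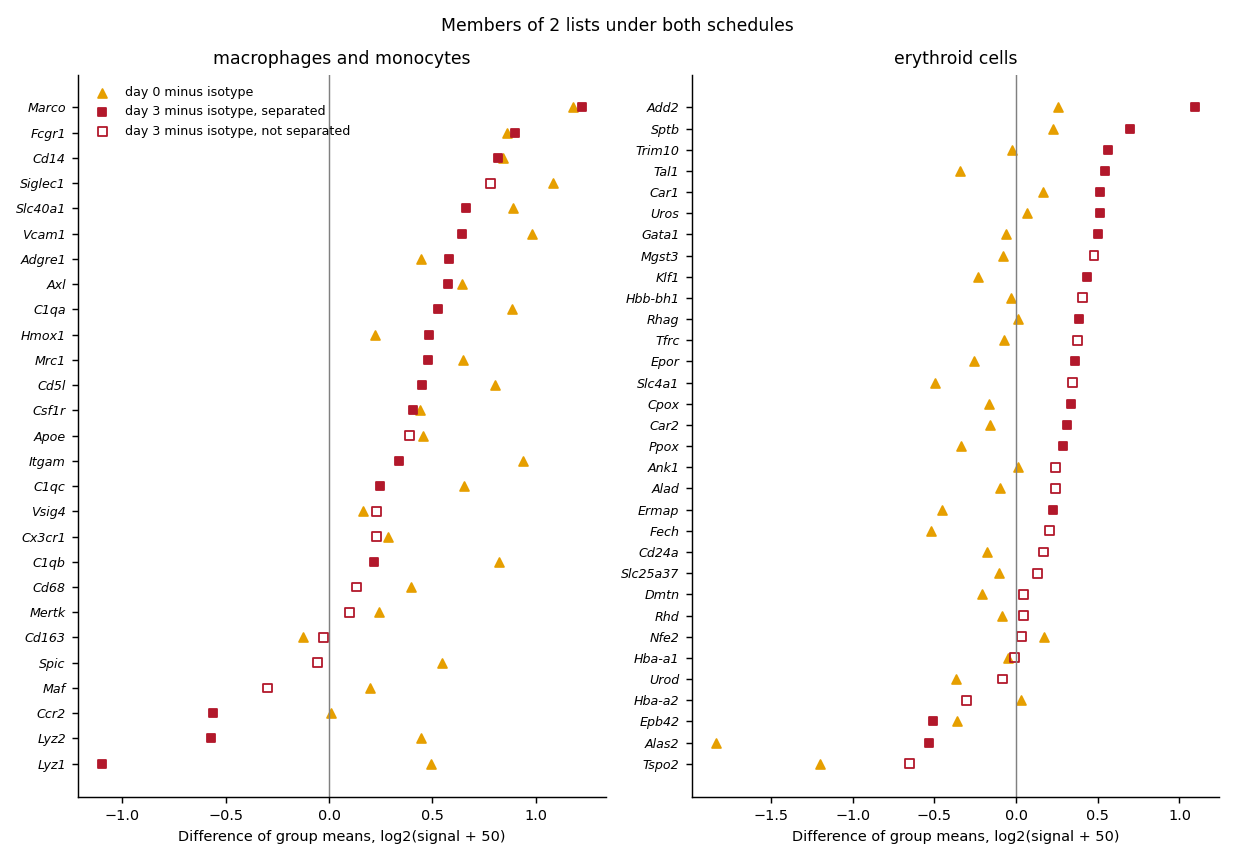
Difference from the isotype group in log2(signal + 50) for each of the 27 macrophage and monocyte genes (left) and 32 red cell genes (right); squares are the day 3 group (filled where separated, open where not) and triangles the day 0 group, and both use the same isotype arrays. Most squares lie right of 0 in both panels, and in the right panel most triangles lie left of the squares.

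Promoters of Klf1 and Epor are shown because GATA1 is the textbook regulator of red cell genes, these 2 included. The motif was searched on both strands in 4 forms: AGATAA was the first form, AGATAG its variant with another last letter, TGATAA the variant with another first letter, and TGATAG the form with both. Matches are in capitals, and both lie on the other strand. Both sequences are the 250 bases before the transcription start, 5′ to 3′ on the gene's strand, from RefSeq (GRCm38.p6): Klf1 at chr8:84901732-84901981 on the plus strand, Epor at chr9:21963577-21963826 on the minus strand.
Klf1: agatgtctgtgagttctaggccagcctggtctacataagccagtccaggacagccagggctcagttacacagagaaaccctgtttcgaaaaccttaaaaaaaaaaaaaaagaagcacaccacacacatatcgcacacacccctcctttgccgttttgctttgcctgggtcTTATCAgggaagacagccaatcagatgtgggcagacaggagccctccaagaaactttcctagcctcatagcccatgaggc
Epor: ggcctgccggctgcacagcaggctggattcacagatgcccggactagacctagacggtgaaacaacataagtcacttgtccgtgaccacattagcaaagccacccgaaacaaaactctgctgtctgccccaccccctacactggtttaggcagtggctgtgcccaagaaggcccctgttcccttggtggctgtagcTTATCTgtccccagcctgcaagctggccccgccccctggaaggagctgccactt
The match begins 80 bases before the start of Klf1 and 54 before that of Epor. Of the 32 red cell genes, 22 have a promoter entry, with 26 windows between them, and 15 of the 26 windows hold a match, whereas 29.8% of all 32851 windows do. Of the 14 genes that were separated and higher, 12 have an entry, and 10 of their 14 windows hold a match.

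Of the target pair itself, neither transcript differed much. Icos read 4044 and 4383 on the isotype arrays against 3453 and 3743 on the day 3 arrays, without overlap, a difference of −0.22 ± 0.16. Icosl overlapped between the groups at 388 and 499 against 342 and 417. On the syngeneic array Icos read 480, so the transcript stood high on all allogeneic arrays. Of 22 genes of costimulation, 7 were separated and lower and 2 separated and higher, with a median of −0.12. The lower ones included Tnfrsf18 (GITR), a receptor of activated and regulatory T cells, at 2447 and 2704 against 2039 and 1959, and Tnfrsf4 (OX40) at 3094 and 3259 against 2666 and 2604. The higher ones were Pdcd1lg2 (PD-L2), an inhibitory ligand of myeloid cells, at 215 and 258 against 340.4 and 340.0, and Tnfsf9 (4-1BB ligand) at 388 and 371 against 455 and 516.

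Ifng and Cd4 were lower on the day 3 arrays, and helper T cell genes as a list leaned lower, with members both ways. Of 21 helper cytokine and regulator genes, 14 were lower and 7 higher, and 5 were separated and lower and 2 separated and higher. Their median was −0.19, against 0.04 over all genes, and ran from −0.29 to 0.01 over the settings. Ifng, which encodes interferon gamma, read 2262 and 2607 on the isotype arrays against 1665 and 1698 on the day 3 arrays. The groups did not overlap, and the day 0 arrays at 2586 and 2606 matched the isotype level. The difference from isotype was −0.52 ± 0.17 (limma, adjusted p = 0.499), or 1.43-fold lower. Cd4, the coreceptor of helper T cells, read 2434 and 2412 against 1608 and 1375, a difference of −0.69 ± 0.17 (limma, adjusted p = 0.455), and its second probe set differed by −0.69 too. Cd8a, the coreceptor of killer T cells, read 4261 and 2040 against 3898 and 2462 at its brighter probe set, where the spread within each group covered the difference of 0.07 ± 0.40. Its second probe set was separated and lower, at 1415 and 984 against 882 and 665, a difference of −0.59.

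Tnf, which encodes tumour necrosis factor, was the largest lower cytokine at 384 and 346 against 178 and 54, although its day 0 arrays at 198 and 372 spanned most of that range. Il4, the cytokine of type 2 helper cells, was low on the isotype arrays at 27 and 30 against 70 and 92 with the day 3 and 106 and 91 with the day 0 schedule, a difference of 0.73 ± 0.18 between day 3 and isotype. Stat6, which relays the interleukin 4 signal, read 1452 and 1377 against 997 and 942, but its second probe set overlapped at 809 and 862 against 747 and 927. Il10 and Il21 were not separated, at 162 and 267 against 161 and 168 and at 337 and 503 against 366 and 572.

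Killing genes were close to level. Gzmb, the granule protease granzyme B, read 25581 and 30122 against 24767 and 27947, and Prf1, the pore-forming perforin, 3089 and 2977 against 3106 and 2505; both overlapped. Of 23 cytotoxic genes, 5 were separated and lower and 2 separated and higher, with a median of −0.08. The lower ones were led by Tnfsf10, the death ligand TRAIL, at 142 and 161 against 62 and 76. Eomes, a transcription factor of killer T cells and natural killer cells, stood higher at 238 and 399 against 417 and 658. Among 14 natural killer cell genes 5 were separated and higher and none lower, but 2 and 3 after median centring; one of the 5 was Ncr1 (NKp46), at 388 and 308 against 461 and 590.

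T cell markers as a list leaned lower: of 15, 5 were separated and lower and none higher, with a median of −0.20. Thy1, carried by all mouse T cells, read 11356 and 11348 against 9297 and 9597, while Cd3g, a chain of the T cell receptor complex, was level at 4370 and 4689 against 4342 and 4694. Il7r, the interleukin 7 receptor that marks resting T cells, read 1151 and 1359 against 957 and 913. Ccr7, the receptor that brings such cells into lymphoid tissue, read 406 and 284 against 176 and 179. For regulatory T cells, Foxp3 overlapped at 100 and 83 against 116 and 83, and Il2ra, the alpha chain of the interleukin 2 receptor, read 1927 and 1864 against 1527 and 1208, while its second probe set overlapped at 1013 and 1185 against 1008 and 1087. Ctla4 and Cd28, the inhibitory and the main activating receptor for the B7 ligands, were not separated, at 1879 and 1448 against 1712 and 1539 and at 2216 and 3125 against 2240 and 2154.

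Genes tied to follicular helper T cells and to B cells were among the clearer lower ones. Cxcr5, the receptor that guides both cell types into follicles, read 1240 and 1853 on the isotype arrays against 795 and 867 on the day 3 arrays. Bcl6, the factor that programs follicular helper cells and germinal centre B cells, read 243 and 366 against 154 and 170. Neither overlapped, with differences of −0.83 ± 0.23 and −0.72 ± 0.29 (limma, adjusted p = 0.475 and 0.564). The day 0 arrays were at a similar level, 918 and 803 for Cxcr5 and 212 and 116 for Bcl6. Of 13 genes of follicular helper cells, 6 were separated and lower and 1 was separated and higher. The higher one, Cxcl13, is the chemokine ligand of CXCR5, made by follicular stroma, and read 202 and 118 against 363 and 596.

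Of 16 B cell genes, 9 were separated and lower and 1, Ighm, was separated and higher (10 and 0 after median centring), with a median of −0.29. Cd79a, a signalling chain of the B cell receptor, read 4009 and 3129 against 2132 and 2078. Cd37, a tetraspanin of mature B cells, read 3417 and 3409 against 2018 and 2088, and Cd22, an inhibitory coreceptor, 3788 and 3843 against 2556 and 2527. None of the 3 overlapped, and the differences were −0.74, −0.72 and −0.58. Chemokine receptor Ccr6 of B cells and memory T cells read 1167 and 1039 against 694 and 790.

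Class II MHC genes were lower beside them. Of 10, 6 were separated and lower and none was separated and higher, with a median of −0.32. H2-Aa and H2-Eb1, which encode chains of the class II molecules that present antigen to CD4+ T cells, read 7211 and 6073 against 4693 and 4900 and 4804 and 4475 against 3373 and 3418. Cd74, the invariant chain that escorts them, read 15034 and 13750 against 11593 and 10436. H2-Ab1 read 726 and 1086 against 1412 and 1235, with isotype arrays as far apart as the groups, and its other 2 probe sets were separated in opposite directions (−0.61 and 0.26). The graft was of another MHC haplotype than the host, so a probe of these genes may read host and donor transcripts differently.

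Interferon response genes were lower in part. Of 19 type I interferon genes, 8 were separated and lower and 1 was separated and higher, with a median of −0.17. Ifit1, which binds viral RNA, read 1436 and 1520 against 868 and 930, a difference of −0.69 ± 0.16, and Ifit3, its partner, 747 and 731 against 575 and 529. Mx1 was higher at 374 and 290 against 391 and 484. Of 19 genes induced by interferon gamma, 7 were separated and lower and 2 separated and higher. Irgm1, a GTPase that acts against intracellular pathogens, read 1389 and 1720 against 904 and 962, while Iigp1 of the same family was higher, at 4285 and 3357 against 5232 and 5082.

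Of 16 glycolysis genes, 8 were separated and lower and none higher, with a median of −0.18. Hk2, the hexokinase of activated T cells, read 901 and 884 against 741 and 618. Pfkfb3, which makes an activator of phosphofructokinase, read 265 and 268 against 184 and 154, and Hif1a, the oxygen-sensing transcription factor, 5860 and 5767 against 4489 and 4615. Ldha, lactate dehydrogenase, was level at 12829 and 12273 against 12623 and 12886. Proliferation genes were centred near the median of all genes: of 34, 9 were separated and higher and 3 separated and lower, with a median of 0.06. After median centring of the arrays these counts were 3 and 3 and the median −0.04. Mki67, present in all cycling cells, read 5108 and 4229 against 5050 and 4620.

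**Figure D4:**
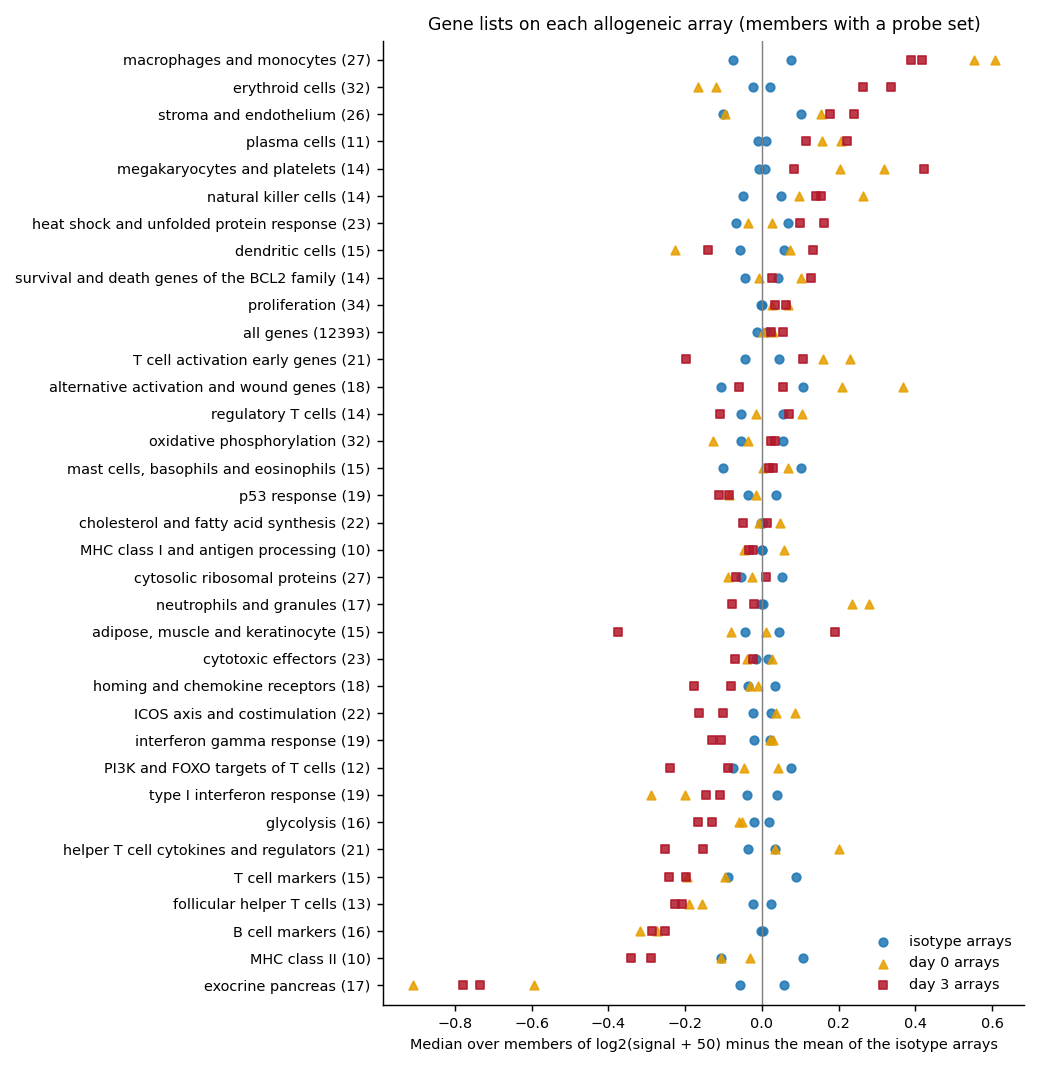
Median over the members of each gene list (number with a probe set in brackets) of log2(signal + 50) minus the mean of the isotype arrays, for each of the 6 allogeneic arrays; circles are isotype, triangles day 0 and squares day 3 arrays. The macrophage and red cell lists lie to the right for both day 3 arrays, the exocrine pancreas list lies furthest left at −0.75 for the group, and all 12393 genes lie near 0.

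Among the 15 largest lower differences, 5 were digestive enzymes or cofactors of the exocrine pancreas, an organ that lies against the spleen. Cpb1, a carboxypeptidase, read 219 and 222 on the isotype arrays against 12 and 37 on the day 3 arrays. The difference was −1.88 ± 0.21 (limma, adjusted p = 0.409, and 0.852 at its highest over the settings). Cela2a, an elastase, read 383 and 519 against 148 and 125, and Clps, colipase, 1050 and 681 against 313 and 294. Cpa1 and Ctrl completed the 5, at 235 and 284 against 53 and 105 and at 200 and 179 against 43 and 60. None of the 5 overlapped between the groups. Of 17 pancreatic genes, 9 were separated and lower and 1, Cela3b, was separated and higher, although 2 of its other probe sets were separated and lower (−0.66 and −0.82). Ctrb1 and Cela1 were not separated. The list summed to 4751 and 4648 with isotype antibody, 2684 and 2967 with the day 3 schedule, 1948 and 2565 with the day 0 schedule and 7957 after syngeneic transfer. The level of this list therefore also differed between the isotype and day 3 groups, and its part in the differences of the lists above was not tested.

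Most other large differences were at dim probe sets. Of the 15 largest higher differences, 12 had both isotype signals under 150. The cut for naming (98.5) was on the mean over the 4 compared arrays. These 12 had isotype means below it and so passed only through the day 3 arrays. Likewise Cpb1 and Ern1, among the lower ones, had day 3 means of 24 and 37 and passed only through the isotype arrays. Apln, the peptide ligand of the apelin receptor, read 135 and 43 against 280 and 495, and Retn, the secreted protein resistin, 48 and 64 against 314 and 196. Cx3cl1, the chemokine fractalkine, read 16 and 46 against 159 and 263, but another of its 3 probe sets was separated and lower. Gaa, lysosomal acid alpha-glucosidase, was brighter and read 173 and 327 against 692 and 1491, a 3.69-fold difference at the probe set with the higher mean, and its second probe set read 179 and 180 against 290 and 301. Among the lower ones, Tle4, a corepressor of the Groucho family, read 564 and 694 against 173 and 261, and its second probe set was not separated. Ern1, the sensor IRE1 of the unfolded protein response, read 160 and 186 against 34 and 40, with neither of its 2 other probe sets separated. Tnrc6a, a component of the miRNA silencing complex, read 4310 and 5356 against 2042 and 2410 at 1 of 8 probe sets, and the other 7 differed by −0.30 to 0.43.

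Single genes of other lists also stood apart. Hspa1b, the inducible chaperone HSP70, read 260 and 198 against 428 and 474, and its day 0 arrays at 262 and 203 matched the isotype level. Kit, the receptor for stem cell factor on progenitors and mast cells, read 104 and 78 against 195 and 214, and Pf4, platelet factor 4, 239 and 262 against 394 and 474; in both the day 0 arrays were as high as the day 3 arrays (199 and 186, 410 and 427). Of 15 genes of mast cells, basophils and eosinophils 1 was separated and higher and 1 separated and lower, and of 14 genes of megakaryocytes and platelets 3 and 1. The fatty acid desaturases Fads1 and Fads2 read 326 and 403 against 561 and 628 and 81 and 103 against 195 and 174. Fasn, fatty acid synthase, read 1003 and 789 against 1322 and 1327, whereas Scd1, the stearoyl-CoA desaturase, was lower at 1225 and 1243 against 708 and 1021. Of the 22 genes of cholesterol and fatty acid synthesis, 4 were separated and higher and 6 separated and lower.

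A further 14 genes described above by their brightest probe set had another one that was not separated: Cd22, H2-Aa, Ccr2, Iigp1, Hif1a, Pfkfb3, Hspa1b, Kit, Add2, Fads2, C1qb, Cpox, Ppox and Epb42. At these other probe sets the differences were −0.43 for Cd22, −0.21 for H2-Aa, 0.13 for Iigp1, 0.23 for Hspa1b, 0.18 for Kit, 0.60 for Fads2 and 0.07 for Cpox. They were −0.17 and −0.26 for Ccr2, −0.13 and 0.004 for Hif1a, 0.05 for Pfkfb3, −0.30 and −0.23 for Add2, 0.18 and −0.04 for C1qb, −0.48 for Ppox and −0.27 for Epb42.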

How the data were processed

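Total RNA (10 µg) of spleen cells was labelled for each of 7 mouse Affymetrix arrays. The deposited values are linear signal intensities, 1 per probe set, computed with MAS5 per the submitters' processing notes; its version is not given in the sources used here. Trimmed means (2% at each end) were 499.95 on each array, so no further scaling was applied. Of 22690 probe sets, 64 manufacturer controls were left out. Exactly 1 gene symbol was given for 20380 probe sets, several for 691 and none for 1555. Signals were analysed as log2(signal + 50), which understates differences of dim genes.

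One fit of 4 group means over 7 arrays used limma 3.58.1 in R 4.3.3 (3 residual and 2.94 prior degrees of freedom), two-sided, with Benjamini-Hochberg adjustment over 22626 probe sets. The lone syngeneic array adds no spread. The procedure was tested on simulated data. The 34 gene lists held 738 genes, 614 with a probe set; the brightest probe set stood for a gene. Genes named were the 15 largest separated differences in each direction with a mean at or above the 40th percentile (98.5), up to 4 separated members of each list, and 15 fixed T cell and ICOS genes; other list members were named after their values were seen. The comparison, lists and rule were chosen with earlier results of these data known. Alternatives were other pseudocounts, filters, scalings, fits and leaving out each array. For arrays, their number limits the precision.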

Additional observations from a re-analysis of the deposited data

Results flagged for a closer look

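In 8 named genes both day 3 arrays lay beyond the isotype arrays on one side and both day 0 arrays on the other side. The differences given are day 3 minus day 0 on the log2(signal + 50) scale. The difference between the schedules was tested in the same limma fit, and none of the 8 passed after Benjamini-Hochberg adjustment. The largest was that of Lyz1, at −1.59 (limma, adjusted p = 0.603). Lcn2, at −0.98, and the T cell genes Il7r, Tnfrsf4 and Icos, at −0.77, −0.44 and −0.32, were also lower on the day 3 than on the day 0 arrays. H2-K1, a class I MHC gene, differed by −0.19. The red cell factor Tal1, at 0.89, and Asns, asparagine synthetase, at 0.46, were higher on the day 3 arrays. For H2-K1 and Lyz1, another probe set was separated from isotype in the opposite direction. H2-K1 also had a probe set at which the day 0 arrays lay below isotype, at 5499 and 3871 against 8261 and 9289. The day 3 arrays read 4554 and 4385 there. No group had 4 or more arrays, so a single array far from its group could not be looked for.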

How the results depend on the processing

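Counts of 2-fold differences depended most on the settings. They were 275 higher and 96 lower as reported, 1005 and 547 with a pseudocount of 16, 44 and 20 with 100, 46 and 24 with a filter at the 60th percentile, and 179 and 169 after median centring; quantile normalization gave 151 lower. Separated probe sets (3409 higher and 2681 lower) were 1642 and 1674 with that filter, which left 10382 probe sets, and 2123 and 4031 after centring, which moved the median difference over all features from 0.031 to −0.069 and the higher share of separated ones from 56.0% to 34.5%. Leaving out 1 array gave 367 to 731 higher and 173 to 423 lower 2-fold differences, and 5351 to 6765 higher and 4480 to 5930 lower separated ones; the gap of that group then has no value, and the lone array is assumed to vary like the others. Without isotype replicate 1, isotype replicate 2 or day 3 replicate 1 the 2-fold higher count rose by over 1.5 times, to 537, 593 and 731; the lower count did so without any of the 4 arrays. The test called 0 probe sets between day 3 and isotype, but 8 with the 60th percentile filter. The 8 included Arg1 and Marco, which passed that filter only through groups in which they were high, so this count is not given as support. With limma's trend and robust options the test called 4 (Igha at 3 probe sets and Saa3). Between day 3 and day 0 it called 0, 7 and 8 in the same order of settings. The other alternatives called 0. The replicate number as a block called 0 as well. Deviations of number 1 arrays correlated at 0.051 between isotype and day 3. The labels do not say whether arrays of the same number belong together, and this value cannot settle it. Of 148 named genes, 141 kept their direction under every alternative that gave them a value, 14 for 128 genes and 13 for the 20 that the 60th percentile filter left out. The exceptions were Foxp3 (−0.033 with quantile normalization, −0.023 centred, −0.083 to 0.24 when 1 array was left out), Cd8a (−0.031 centred, −0.45 to 0.59 with 1 array left out) and, with 1 array left out, Gzmb (−0.19 to 0.040), Prf1 (−0.27 to 0.034), Il10 (−0.57 to 0.019), Il21 (−0.15 to 0.43) and Ctla4 (−0.21 to 0.16). Of 34 list medians 19 kept their sign. The cause was not tested.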
